A study of Mus musculus with 468 samples.

Results

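Potassium channel genes were followed across 4 adipose depots of mice given fibroblast growth factor 21 (FGF21), a secreted hormone that acts on adipose tissue. The members were the genes whose platform symbol starts with Kcn followed by letters and a digit, with Kcne1l included. This gave 88 genes with 126 probe sets, out of 21931 genes with a symbol and 43681 probe sets on the array. The probe set with the highest mean log2 intensity over all arrays stood for each gene, and 30 of the 88 genes had more than 1 probe set. By role the members comprised 35 pore-forming subunits of voltage-gated (Kv) channels, 12 accessory subunits of Kv channels, 14 inward rectifiers, 14 tandem-pore leak channels, 12 subunits of calcium- or sodium-activated channels and 1 noncoding transcript, Kcnq1ot1.

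RNA was measured on custom Affymetrix arrays of brown adipose tissue (BAT, 119 arrays) and of inguinal (IWAT, 120), epididymal (EWAT, 115) and retroperitoneal (RPWAT, 114) white adipose tissue (WAT). Male mice of 8 weeks were dosed subcutaneously with wild-type FGF21 (WT FGF21, 1.25 mg/kg BID, meaning 2 doses a day), with pegylated FGF21 (PEG30-FGF21 Q108, 0.75 or 2.5 mg/kg BIW, meaning 2 doses a week) or with saline vehicle, for 2 or 5 d. The 3 mouse models were C57BL/6 mice on chow (WT-chow), C57BL/6 mice fed a high fat diet (WT-HFD) and C57BLKS/J mice with the db/db genotype on chow (db/db-chow), so that the db/db genotype and the C57BLKS/J strain cannot be told apart. Of the 96 groups, 87 held 5 arrays, 6 held 4 and 3 held 3. Depots were collected some 30 h after PEG30-FGF21 Q108 had last been injected and some 6 h after WT FGF21 or vehicle had, so that each PEG30-FGF21 Q108 group also differed from its vehicle group in the hours since the last injection. The number of arrays limits the precision, and p-values rest on the spread of arrays within groups, pooled over all groups of a depot. An outlying array of 1 group thus also bears on the other comparisons of its depot.

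Potassium channels let potassium leave or enter cells and so set the membrane potential. Kv channels open on depolarisation and are assembled from pore-forming subunits that accessory subunits modify, inward rectifiers pass potassium mainly near the resting potential, and tandem-pore channels carry a leak current. In brown adipocytes noradrenaline drives heat production through uncoupling protein (Ucp1), and in mouse brown adipocytes the leak channel encoded by Kcnk3 is known to counter that depolarising signal.

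Averaged over FGF21 treatments, models and days, Kcne1l and Kcnh2 were lower in the 3 WAT depots than with vehicle and Kcnj15 was higher in every depot. Kcnk3 was higher in BAT, IWAT and EWAT on the same average, which its second probe set bore out in BAT only. In BAT Kcnj11 was also higher, and Kcnc2, Kcns3 and Kcnab3 were lower. Promoters are shown for Kcne1l and Kcnh2, the members that were lower over models and days in all 3 WAT depots, and for Kcnj15, which had the largest single change in BAT. Each runs 5′ to 3′ on the strand of its gene, from 250 bases before to 50 after the transcript start, taken from RefSeq on mouse GRCm38.p6, and capitals mark matches to the motifs searched. Kcne1l lay at chrX:142306149-142306448 on the minus strand, Kcnh2 at chr5:24329542-24329841 on the minus strand and Kcnj15 at chr16:95257308-95257607 on the plus strand. The Kcnh2 gene spans 24319589 to 24351684, so its window lies inside the gene. The outermost Kcnh2 start is thus not the one shown.
Kcne1l: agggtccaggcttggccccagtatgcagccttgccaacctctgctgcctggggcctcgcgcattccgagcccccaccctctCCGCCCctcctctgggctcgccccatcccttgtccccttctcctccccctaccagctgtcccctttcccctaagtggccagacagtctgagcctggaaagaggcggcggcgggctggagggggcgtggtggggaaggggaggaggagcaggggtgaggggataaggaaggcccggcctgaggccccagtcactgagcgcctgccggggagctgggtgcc
Kcnh2: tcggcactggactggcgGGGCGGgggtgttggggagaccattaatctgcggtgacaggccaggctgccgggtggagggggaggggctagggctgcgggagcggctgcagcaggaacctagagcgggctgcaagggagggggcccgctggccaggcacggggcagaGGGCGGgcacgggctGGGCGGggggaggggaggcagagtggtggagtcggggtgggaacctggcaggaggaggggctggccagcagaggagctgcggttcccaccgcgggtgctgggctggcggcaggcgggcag
Kcnj15: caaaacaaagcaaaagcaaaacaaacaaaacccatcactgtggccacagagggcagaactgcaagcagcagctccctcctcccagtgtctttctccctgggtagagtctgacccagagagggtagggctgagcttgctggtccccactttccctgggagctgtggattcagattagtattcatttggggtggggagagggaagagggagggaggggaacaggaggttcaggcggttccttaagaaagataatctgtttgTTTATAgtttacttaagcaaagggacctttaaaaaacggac

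Short motifs were searched on both strands of these windows, with no overlap between the matches found: TATAAA (in 13.6% of all 32851 RefSeq promoter windows of the same length), GGGCGG (35.7%), CCAAT (37.4%), CACGTG (7.15%), TGACG (20.8%), TGANTCA (7.81%) and AGGTCA (16.3%). The Kcne1l window held 1 GGGCGG match, on the minus strand. The Kcnh2 window held 3 on the plus strand and the Kcnj15 window held 1 TATAAA match on the minus strand. These shares describe the windows only. The GC content was 69.7% for Kcne1l, 74.3% for Kcnh2 and 49.7% for Kcnj15.

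All 88 members were measured in every depot, and in vehicle-treated WT-chow mice 29 of them lay above the 50th percentile of their arrays in BAT, 32 in IWAT, 32 in EWAT and 36 in RPWAT. Each treatment was compared with vehicle of the same depot, mouse model and day by limma on log2 intensity, fitted over all arrays of the depot, and a gene was called at a Benjamini-Hochberg adjusted p under 0.05 over all 43681 probe sets. The 3 treatments of a depot, model and day were compared with the same vehicle arrays, so their calls are not independent. Across the 72 comparisons (4 depots, 3 models, 2 days and 3 treatments) 50 members were called at least 1 time and 38 in none. Of the 216 calls 95 were in BAT and 121 in WAT. Calls fell in 1 depot only for 26 members, while 3 members were called in every depot and 6 were called in opposite directions within a depot. No such counts per gene are given over all genes, so whether these are many or few cannot be told.

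In BAT, the members made up 19 higher and 12 lower calls of 528 tests with WT FGF21 (3.60% and 2.27%), where 4.86% of all gene tests were called higher and 6.81% lower. With PEG30-FGF21 Q108 at 0.75 mg/kg BAT had 12 higher and 15 lower member calls (2.27% and 2.84%), against 6.16% and 5.97% of all gene tests. At 2.5 mg/kg there were 16 higher and 21 lower (3.03% and 3.98%), against 6.65% and 7.84%. The share of member tests called in BAT was thus below that of all genes in each direction and with each treatment.

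Of the IWAT arrays 2 stood apart from their groups over all probe sets, a db/db-chow vehicle array of 2 d and a WT-HFD array of 5 d given WT FGF21, and IWAT counts are given with and without them. In IWAT the members had 6 higher and 10 lower calls of 528 tests with WT FGF21 (1.14% and 1.89%), against 3.22% and 1.61% of all gene tests. PEG30-FGF21 Q108 at 0.75 mg/kg gave 1 and 7 (0.189% and 1.33%), against 2.17% and 0.584%, and 2.5 mg/kg gave 1 and 13 (0.189% and 2.46%), against 3.14% and 1.05%. When the pair of outlying arrays was left out, 18 of the 38 member calls in IWAT ended, among them all 8 higher calls. IWAT then had 1 higher and 29 lower member calls of 1584 tests (0.0631% and 1.83%), against 1.33% and 1.09% of all gene tests. EWAT members had 4 higher and 10 lower calls with WT FGF21 (0.758% and 1.89%), against 1.87% and 1.40% of all gene tests. There the 0.75 mg/kg dose gave 3 and 6 (0.568% and 1.14%), against 1.28% and 0.721%, and the 2.5 mg/kg dose 0 higher and 14 lower (0% and 2.65%), against 1.79% and 1.18%. RPWAT members had 4 higher and 12 lower calls with WT FGF21 (0.758% and 2.27%), against 2.11% and 1.69%, then 7 and 8 at 0.75 mg/kg (1.33% and 1.52%), against 1.64% and 0.488%, and 5 and 10 at 2.5 mg/kg (0.947% and 1.89%), against 2.12% and 1.17%. In all 3 WAT depots the share of member tests called lower was above that of all genes and the share called higher below it, with each treatment. Kcne1l and Kcnh2 made up 43 of the 90 lower calls in WAT, and without them IWAT had 16 lower calls of 1548 tests, EWAT 16 and RPWAT 15. These were 1.03%, 1.03% and 0.969% of the tests of the other members, against 1.08%, 1.10% and 1.12% of all gene tests, so that without this pair of genes the share called lower over the 3 treatments was not above that of all genes.

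An N-way model (FGF21 of any kind, mouse model and day with their interactions) gave the FGF21 difference averaged over models and days, and a member passed at an unadjusted p under 0.001. In BAT 4 members passed as higher and 6 as lower, against 10.6% and 14.1% of all genes. IWAT had 2 and 4 (6.16% and 3.47% of all genes), EWAT 6 and 4 (4.67% and 4.48%) and RPWAT 3 and 2 (6.61% and 3.99%). The higher members were Kcnd3, Kcnj11, Kcnj15 and Kcnk3 in BAT, Kcnj15 and Kcnk3 in IWAT, Kcnj15, Kcnj9, Kcnk12, Kcnk3, Kcns3 and Kcnt1 in EWAT, and Kcnj15, Kcns3 and Kcnu1 in RPWAT. The lower members were Kcna1, Kcnab3, Kcnc2, Kcne1l, Kcnj10 and Kcns3 in BAT, Kcne1l, Kcne4, Kcnh2 and Kcnj14 in IWAT, Kcne1l, Kcnh2, Kcnj14 and Kcnj2 in EWAT, and Kcne1l and Kcnh2 in RPWAT. The median N-way difference over the 88 members was 0.03 in BAT, -0.01 in IWAT, 0.02 in EWAT and -0.02 in RPWAT on the log2 scale. The heat map of log2 changes sets the most often called members against vehicle in every comparison.

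By mouse model, BAT had 26 higher and 24 lower member calls of 528 in db/db-chow mice (4.92% and 4.55%), where 7.79% and 8.01% of all gene tests were called. WT-HFD mice had 10 and 13 in BAT (1.89% and 2.46%), against 4.59% and 7.51%, and WT-chow mice 11 and 11 (2.08% each), against 5.29% and 5.11%. In EWAT the members had 0 and 2 calls in db/db-chow mice (0% and 0.379%), against 0.361% and 0.184% of all gene tests, then 2 and 16 in WT-HFD mice (0.379% and 3.03%), against 1.92% and 1.34%, and 5 and 12 in WT-chow mice (0.947% and 2.27%), against 2.65% and 1.78%. The models thus differed in all gene tests as well as in the members. In IWAT db/db-chow mice had 4 and 12 (0.758% and 2.27%), against 7.29% and 2.01%, WT-HFD mice 4 and 13 (0.758% and 2.46%), against 0.851% and 1.04%, and WT-chow mice 0 and 5 (0% and 0.947%), against 0.387% and 0.189%. Of the 16 IWAT calls in db/db-chow mice 14 ended without the outlying arrays, the other two being Kcnj8. There were then 0 higher and 3 lower calls in these mice (0% and 0.568%), against 0.755% and 0.452% of all gene tests, 0 and 18 in WT-HFD mice (0% and 3.41%), against 1.81% and 1.89%, and 1 and 8 in WT-chow mice (0.189% and 1.52%), against 1.42% and 0.938%. RPWAT had 4 and 7 in db/db-chow mice (0.758% and 1.33%), against 1.80% and 1.26%, 4 and 14 in WT-HFD mice (0.758% and 2.65%), against 1.53% and 1.07%, and 8 and 9 in WT-chow mice (1.52% and 1.70%), against 2.55% and 1.02%.

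By role, BAT calls are read against 5.89% higher and 6.87% lower of all gene tests over the 3 treatments. The inward rectifiers had 18 higher and 5 lower calls of 252 (7.14% and 1.98%), with most of the higher calls from Kcnj15 and Kcnj11. The tandem-pore channels had 9 and 4 (3.57% and 1.59%). The pore-forming Kv subunits had 14 and 23 of 630 (2.22% and 3.65%) and the accessory subunits 2 and 11 of 216 (0.926% and 5.09%). In IWAT the accessory subunits had 2 higher and 10 lower calls (0.926% and 4.63%), against 2.84% and 1.08% of all gene tests, in EWAT 1 and 11 (0.463% and 5.09%), against 1.65% and 1.10%, and in RPWAT 2 and 8 (0.926% and 3.70%), against 1.96% and 1.12%, with most of the lower calls from Kcne1l. Both higher accessory calls in IWAT, Kcne1 and Kcne2 with WT FGF21 in WT-HFD mice at 5 d, ended without the outlying arrays. These shares were not tested against each other.

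**Figure D1:**
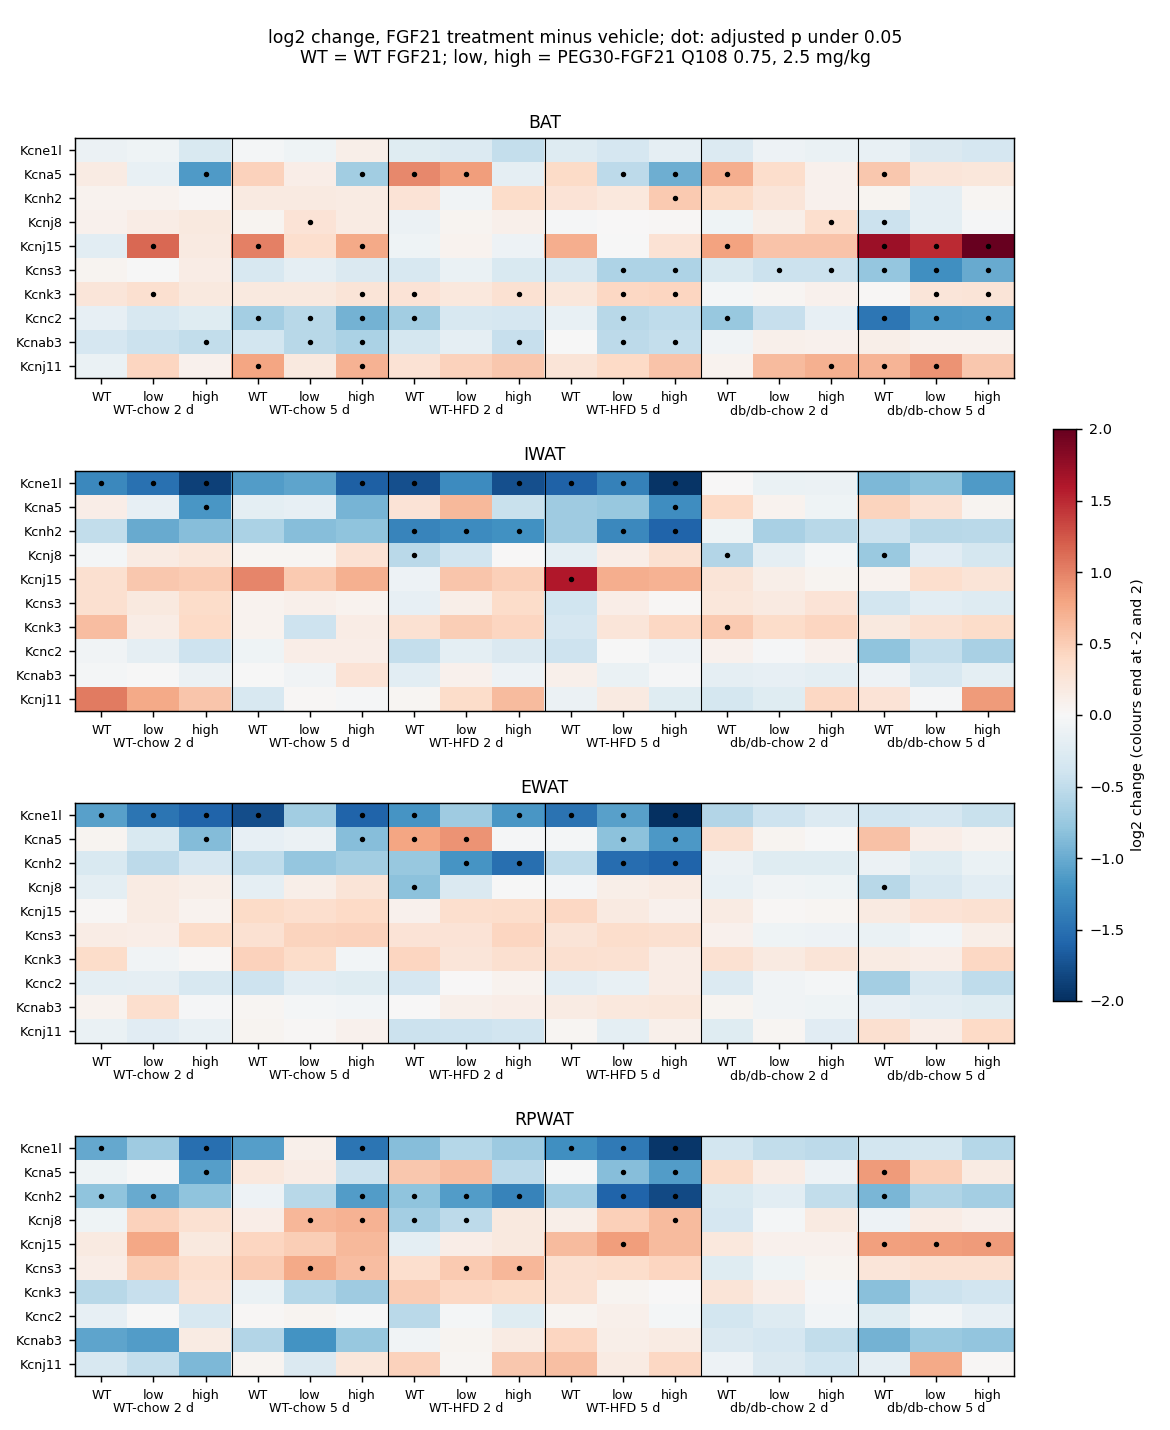
Log2 change of each gene (rows) against vehicle in each depot, model, day and treatment (columns), with colours ending at -2 (lower) and 2 (higher) and a dot where the adjusted p was under 0.05. Dots for lower Kcne1l stand in WAT columns of WT-chow and WT-HFD mice, those for lower Kcnh2 mostly in WAT columns of WT-HFD mice, and Kcnj15 is higher in the BAT columns of db/db-chow mice at 5 d.

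Among the accessory subunits, Kcne1l fell in all 3 WAT depots of WT-chow and WT-HFD mice. Kcne1l, named KCNE5 in humans, encodes a single-pass membrane subunit that modifies the current of Kv channels. At 2 d in WT-chow mice its IWAT intensity was 38.1, 54.5, 52.3, 33.7 and 40.5 with PEG30-FGF21 Q108 at 2.5 mg/kg, against 112, 88.8, 121, 324 and 238 with vehicle. Every treated array lay below every vehicle array, and the vehicle arrays themselves were widely spread. The log2 change was -1.86 (SE 0.32, adjusted p = 0.00025). At 5 d in the same mice it was 44.6, 38.6, 36.5, 43.3 and 37.3 with 2.5 mg/kg and 99.0, 116, 170.1, 122 and 119.7 with vehicle, again without overlap, a change of -1.63 (SE 0.32, adjusted p = 0.0012). In adipose RNA fewer cells that express a gene and less of its RNA per cell cannot be told apart.

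Kcne1l was also lower in the visceral depots. In EWAT of WT-HFD mice at 5 d Kcne1l had 21.1, 11.9, 27.7, 14.4 and 21.9 with PEG30-FGF21 Q108 at 2.5 mg/kg, against 96.0, 59.1 and 110.3 in the 3 vehicle arrays, a log2 change of -2.20 (SE 0.29, adjusted p = 1.6e-08). No treated array reached the lowest vehicle array. In RPWAT of the same mice it had 27.0, 19.7, 20.6, 18.7 and 22.9 with 2.5 mg/kg, against 107, 24.7, 133, 103 and 111 with vehicle. Here 1 vehicle array, numbered replicate 2, lay among the treated arrays and the others stood well above them. The log2 change was -1.95 (SE 0.28, adjusted p = 1.7e-07), and -2.39 (adjusted p = 2.7e-11) without that array. Leaving out the lowest vehicle array enlarges the fall by construction, so the smaller p-value is no added support. In EWAT of WT-chow mice at 2 d the values were 14.0, 18.9, 22.8 and 14.1 with 2.5 mg/kg and 53.1, 39.4, 37.1, 70.9 and 66.3 with vehicle, with no overlap and a change of -1.60 (SE 0.27, adjusted p = 1.9e-05). RPWAT of WT-chow mice had 25.0, 23.6, 22.4 and 23.8 at 2 d with 2.5 mg/kg and 59.9, 86.5, 48.3, 85.5 and 63.5 with vehicle, also without overlap.

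Over all treatments Kcne1l was called lower in 9 of 18 comparisons in IWAT, 10 in EWAT and 6 in RPWAT, and higher in none. All 25 calls were in WT-chow and WT-HFD mice. With WT FGF21 it fell in IWAT of WT-HFD mice at 2 d (-1.76) and 5 d (-1.61) and in EWAT of WT-chow mice at 5 d (-1.77). With PEG30-FGF21 Q108 at 0.75 mg/kg it fell in IWAT (-1.49) and EWAT (-1.47) of WT-chow mice at 2 d, and in RPWAT of WT-HFD mice at 5 d (-1.42). In db/db-chow mice Kcne1l was called in 0 of 18 WAT comparisons. At 2 d in IWAT it had 43.7, 63.7, 57.5, 62.1 and 65.6 with 2.5 mg/kg and 77.4, 39.0, 75.5, 54.1 and 80.1 with vehicle in db/db-chow mice, so that the groups overlapped, and the response in db/db-chow mice minus that in WT-chow mice was 1.74 (SE 0.46, adjusted p = 0.04). The vehicle array at 39.0 differed from its group over all probe sets by a mean of 1.01, where the median IWAT array differed by 0.19, and with the 2 outlying arrays of IWAT left out the difference was 1.57 (SE 0.47, adjusted p = 0.14) and did not pass. In EWAT the same difference was 1.33 at 2 d (adjusted p = 0.17) and 1.15 at 5 d (adjusted p = 0.10), and in RPWAT 0.97 (adjusted p = 0.70) and 0.89 (adjusted p = 0.38), none of which passed. The N-way difference was -1.18 (SE 0.11, adjusted p = 9.0e-16) in IWAT, -1.02 (SE 0.10, adjusted p = 5.3e-14) in EWAT and -0.84 (SE 0.11, adjusted p = 3.4e-09) in RPWAT.

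In BAT Kcne1l had 3.79, 3.87, 3.88, 3.44 and 4.58 with PEG30-FGF21 Q108 at 2.5 mg/kg in WT-chow mice at 2 d, against 5.09, 5.14, 3.91, 4.54 and 5.42 with vehicle, with overlap and no call in any of the 18 comparisons. Its N-way difference there was -0.20 (SE 0.06, adjusted p = 0.003). The response in BAT minus that in IWAT was 1.56 at 2 d (adjusted p = 0.025) and 1.74 at 5 d (adjusted p = 0.00083) in WT-chow mice, and minus that in EWAT 1.30 (adjusted p = 0.012) and 1.71 (adjusted p = 7.6e-06). Minus that in RPWAT it was 1.57 at 5 d (adjusted p = 0.00081) and did not pass at 2 d (adjusted p = 0.077). Kcne1l lay at percentile 24.4 of the BAT vehicle arrays of WT-chow mice, against 63.1 in IWAT, 62.7 in EWAT and 62.2 in RPWAT, so that in BAT it was measured near the low end of the array.

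**Figure D2:**
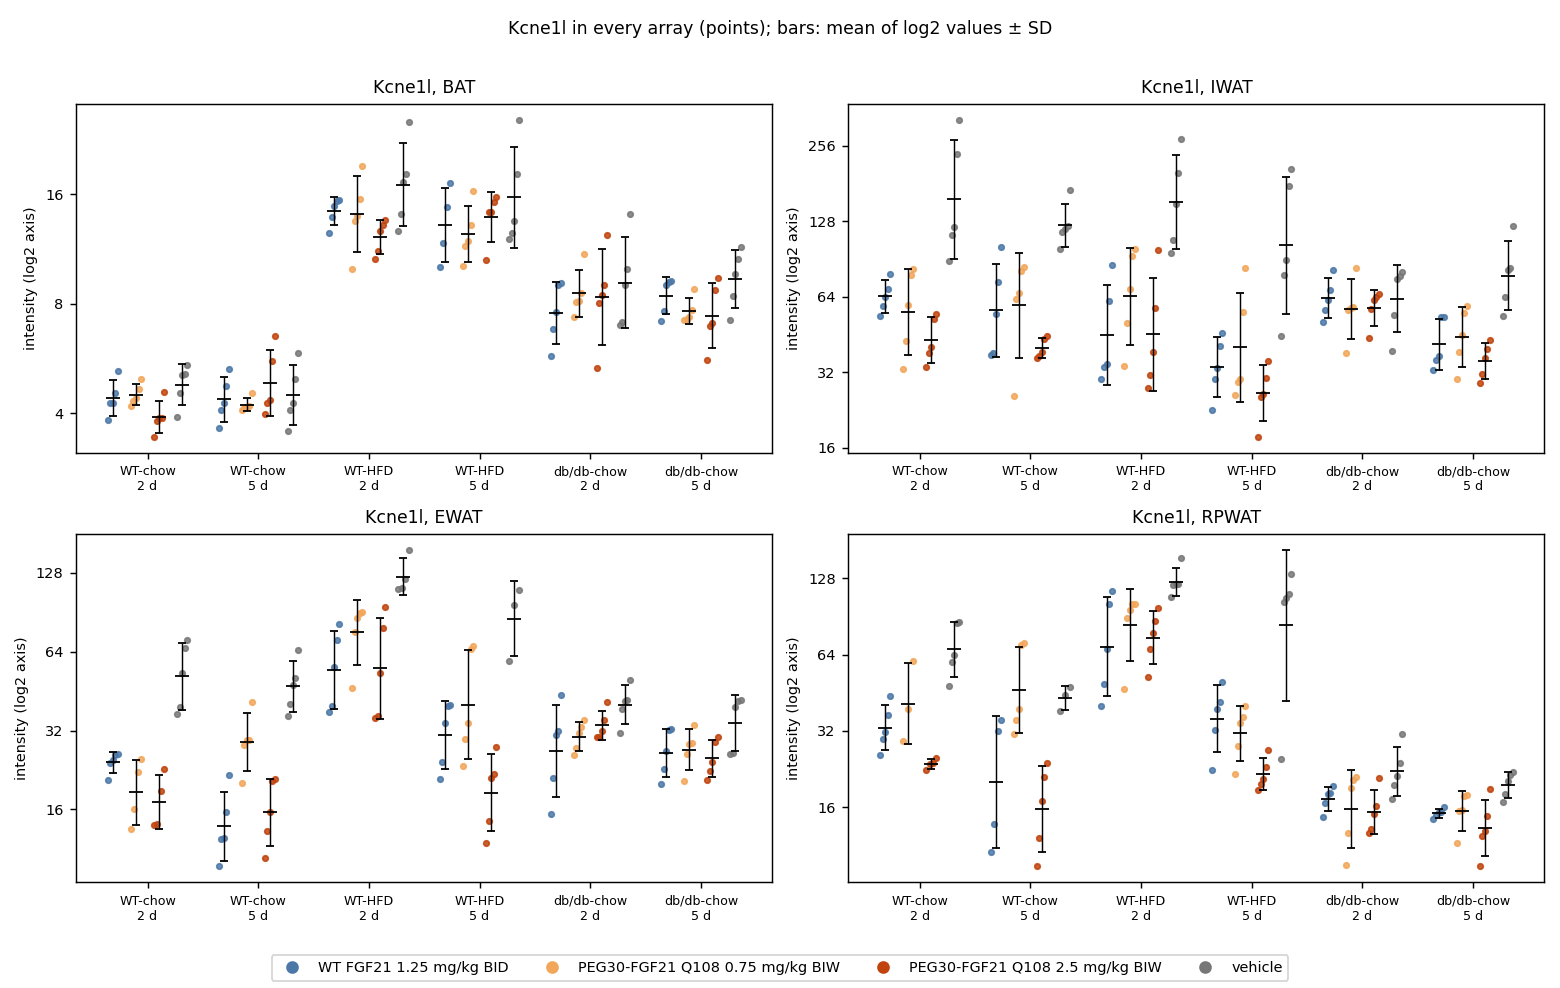
Kcne1l intensity (log2 axis) in each array by depot, model, day and treatment, with points as arrays and bars as the mean of log2 values ± SD. At 2 d in IWAT, all 5 WT-chow arrays of 2.5 mg/kg lie below all 5 vehicle arrays, and in BAT the groups overlap at a low intensity.

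Markers of other cells were read in the same arrays. The 6 endothelial markers (Cdh5, Pecam1, Tie1, Kdr, Tek and Vwf) summed to 8598 to 9502 with 2.5 mg/kg in the 2 d IWAT arrays of WT-chow mice, against 9737 to 11308 with vehicle, and their median N-way difference was -0.20 in IWAT, -0.16 in EWAT and -0.05 in RPWAT. The 6 markers of smooth muscle and pericytes summed to 3612 to 5704 with 2.5 mg/kg in EWAT of WT-HFD mice at 5 d and 8182 to 8477 with vehicle, but to 3515 to 4520 with 2.5 mg/kg and 3372 to 4273 with vehicle in WT-chow mice at 2 d, where Kcne1l was lower without overlap. The 5 adipocyte markers summed to 18758 to 19865 with 2.5 mg/kg in EWAT of WT-chow mice at 2 d and 19239 to 20229 with vehicle. Such sums add linear intensities, so the brightest markers weigh most. In the smooth muscle and pericyte list this was Rgs5, with other members moving the opposite way, as given below beside Kcnh2. The part of these cell types in the Kcne1l result was not tested.

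Other accessory subunits changed less often. Kcnab3, a Kv beta subunit, fell in BAT of WT-chow and WT-HFD mice given PEG30-FGF21 Q108, with 6 calls of 18. In WT-HFD mice at 5 d it had 86.2, 78.8, 86.7, 84.9 and 90.9 with 2.5 mg/kg, against 111, 132, 113, 117 and 119.5 with vehicle. All treated arrays lay below all vehicle arrays, a log2 change of -0.47 (SE 0.14, adjusted p = 0.014). In WT-chow mice at 5 d the change was -0.63, at 2 d -0.49, and the response to 2.5 mg/kg at 5 d in db/db-chow mice minus that in WT-chow mice was 0.71 (SE 0.20, adjusted p = 0.015). The call in WT-chow mice at 2 d ended when any of 6 of the 10 arrays was left out, with changes of -0.33 to -0.49 (adjusted p 0.051 to 0.25). Kcne4, which also modifies Kv channels, fell in BAT of db/db-chow mice at 5 d with 0.75 mg/kg (-1.02) and 2.5 mg/kg (-0.87), and its N-way difference in IWAT was -0.27 (SE 0.06, adjusted p = 0.0014). Kcnab2, another Kv beta subunit, rose with WT FGF21 at 2 d in WT-chow mice in EWAT (1.16) and RPWAT (0.87), and in BAT of db/db-chow mice at 5 d it was 0.50 with WT FGF21 and -0.62 with 0.75 mg/kg.

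Of the pore-forming Kv subunits, Kcnh2 fell in the WAT depots and rose in 1 comparison in BAT. Kcnh2 encodes the channel known as hERG in humans, which carries a repolarising current in heart muscle. In RPWAT of WT-HFD mice at 5 d its intensity was 62.2, 27.2, 56.2, 65.3 and 52.1 with PEG30-FGF21 Q108 at 2.5 mg/kg, against 223, 129, 213, 175 and 158 with vehicle. The highest treated array lay well below the lowest vehicle array, and the log2 change was -1.80 (SE 0.23, adjusted p = 6.0e-09). In EWAT the values were 53.8, 23.5, 40.7, 41.8 and 32.7 with 2.5 mg/kg and 164, 87.1 and 99.6 with vehicle in WT-HFD mice at 5 d, without overlap, a change of -1.60 (SE 0.28, adjusted p = 2.5e-05). IWAT had 58.6, 33.2, 42.0, 26.4 and 40.6 with 2.5 mg/kg and 190.5, 56.6, 262, 106 and 74.8 with vehicle. The highest IWAT treated array just passed the lowest vehicle array, and the change was -1.60 (SE 0.29, adjusted p = 0.00017). In BAT of the same mice Kcnh2 had 46.9, 52.3, 54.4, 65.1 and 61.4 with 2.5 mg/kg and 45.4, 34.6, 37.7, 45.4 and 33.1 with vehicle. Every treated array there was above every vehicle array, a change of 0.52 (SE 0.17, adjusted p = 0.027).

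In the same WT-HFD arrays at 5 d the 6 smooth muscle and pericyte markers summed to 3495 to 4506 with 2.5 mg/kg in RPWAT, against 6349 to 8775 with vehicle. In EWAT they summed to 3612 to 5704 with 2.5 mg/kg and 8182 to 8477 with vehicle, in IWAT to 3408 to 4580 and 4592 to 7925, and in BAT to 6615 to 7781 and 7766 to 8440. These sums were lower than with vehicle without overlap in each WAT depot and overlapped in BAT. Rgs5 had the highest level of this list in WT-chow vehicle arrays (median percentile 98.96 in IWAT, 99.31 in EWAT and 99.17 in RPWAT). In the N-way test Rgs5 passed as lower in each WAT depot. Tagln passed as higher in each of them and Acta2 in EWAT, so the list did not move as one. The part of these cells in the Kcnh2 result was not tested.

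Kcnh2 was called lower in 5 of 18 comparisons in IWAT, 4 in EWAT and 9 in RPWAT, and higher in 1 of 18 in BAT. In IWAT and EWAT all of these calls were in WT-HFD mice. RPWAT had 3 in WT-chow mice, 5 in WT-HFD mice and 1 in db/db-chow mice. The N-way difference was -0.82 (SE 0.10, adjusted p = 1.4e-10) in IWAT, -0.63 (SE 0.09, adjusted p = 1.5e-07) in EWAT and -0.83 (SE 0.09, adjusted p = 8.3e-12) in RPWAT. In EWAT the response to 2.5 mg/kg in WT-HFD mice minus that in WT-chow mice was -1.17 at 2 d (adjusted p = 0.19) and -0.91 at 5 d (adjusted p = 0.71), so a difference between these models did not pass. The response in BAT minus that in RPWAT of WT-chow mice at 5 d was 1.28 (SE 0.31, adjusted p = 0.0026). Minus that in IWAT it was 0.87 at 2 d (adjusted p = 0.42) and 0.96 at 5 d (adjusted p = 0.11).

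**Figure D3:**
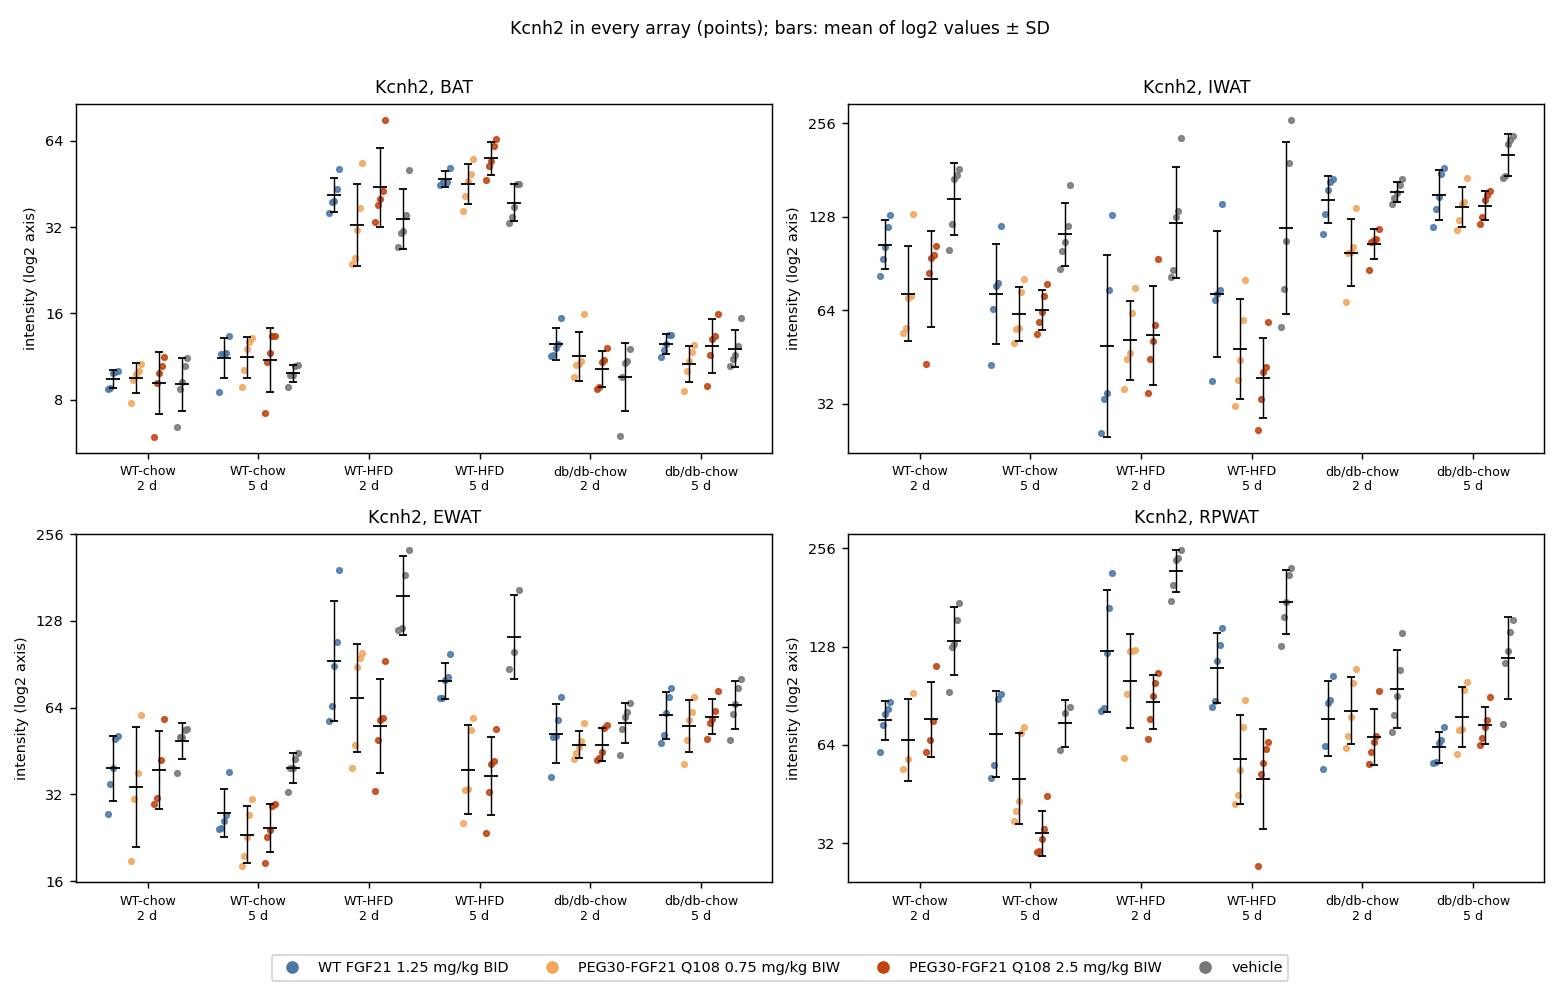
Kcnh2 intensity (log2 axis) in each array by depot, model, day and treatment, with points as arrays and bars as the mean of log2 values ± SD. In RPWAT of WT-HFD mice at 5 d the 2.5 mg/kg arrays sit between 27.2 and 65.3, all below the vehicle arrays, while in BAT of these mice they sit above them.

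Levels of kidney and adrenal markers varied widely among RPWAT arrays, and are set here beside the RPWAT results. The 6 measured kidney and adrenal markers (Cyp11a1, Cyp11b1 and Star among them) summed to 136 to 184 with 2.5 mg/kg in RPWAT of WT-chow mice at 5 d, against 182 to 9968 with vehicle, and to 217 to 14808 with 2.5 mg/kg and 1375 to 16763 with vehicle in db/db-chow mice at 5 d. In WT-HFD mice at 5 d they summed to 171 to 183 with 2.5 mg/kg and 157 to 195 with vehicle. With the log2 of this sum as a covariate, an alternative added after seeing the data, the N-way difference in RPWAT was -0.88 for Kcne1l, -0.75 for Kcnh2 and 0.37 for Kcnj15, and all 3 passed. Of the 46 member calls in RPWAT 12 ended with it. Among the genes described above and below these were Kcnh2 with WT FGF21 in WT-chow mice at 2 d (adjusted p = 0.061) and db/db-chow mice at 5 d (adjusted p = 0.079), Kcnh2 with 0.75 mg/kg in WT-chow mice at 2 d (adjusted p = 0.10), Kcnj15 with WT FGF21 in db/db-chow mice at 5 d (adjusted p = 0.074) and Kcns3 with 2.5 mg/kg in WT-chow mice at 5 d (adjusted p = 0.077). Kcne4 with WT FGF21 in WT-chow mice at 2 d (adjusted p = 0.078), Kcne3 (adjusted p = 0.095) and Kcnk1 (adjusted p = 0.24) with 0.75 mg/kg in WT-chow mice at 5 d, and Kcnj4 (adjusted p = 0.35) and Kcnmb2 (adjusted p = 0.44) with WT FGF21 in db/db-chow mice at 5 d ended as well, as did 1 call each of Kcnn2 and Kcnk5 given below.

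Kcne1l and Kcnh2 also varied together among arrays within groups. The deviation of each gene from its group mean correlated across the 120 IWAT arrays with Pearson's r = 0.70 and Spearman's rho = 0.70 (permutation p and adjusted p = 1e-05 for r, the smallest that 100000 resamples can give, over 4 relations tested). The adjusted permutation p for rho was 2e-05. In EWAT r was 0.48 and rho 0.43 (permutation p = 1e-05 for both), and in RPWAT r was 0.43 and rho 0.38 (permutation p = 1e-05 and 3e-05). In BAT r was 0.11 (permutation p = 0.24) and rho 0.067 (permutation p = 0.47). Without the 2 arrays farthest from the median r was 0.70, 0.47, 0.41 and 0.10 in the order IWAT, EWAT, RPWAT and BAT. Taken model by model (WT-chow, then WT-HFD, then db/db-chow) r was 0.55, 0.80 and 0.60 in IWAT. It was -0.06, 0.73 and 0.59 in EWAT and 0.64, 0.63 and -0.32 in RPWAT, so that outside IWAT the relation did not hold within every model. The points share the group means that were removed.

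Kcna5, which encodes a delayed rectifier found in vascular smooth muscle and heart, was called 20 times in both directions. With PEG30-FGF21 Q108 at 2.5 mg/kg it fell in WT-chow mice at 2 d in BAT (-1.13), IWAT (-1.17), EWAT (-0.87) and RPWAT (-1.10), and in WT-HFD mice at 5 d in BAT (-0.98), IWAT (-1.25), EWAT (-1.15) and RPWAT (-1.11). In BAT of WT-chow mice at 2 d it had 58.2, 54.6, 30.6, 47.2 and 35.4 with 2.5 mg/kg, against 75.7, 103, 102, 119 and 87.0 with vehicle, without overlap and with adjusted p = 7.9e-06. All its calls with WT FGF21 were higher. In BAT of WT-HFD mice at 2 d it had 440.0, 502, 566, 544 and 638 with WT FGF21 and 159, 213, 277, 419 and 388 with vehicle. The WT FGF21 arrays were all above the vehicle arrays, which were widely spread, and the change was 0.97 (SE 0.18, adjusted p = 4.6e-05). It was also higher with WT FGF21 in BAT of db/db-chow mice at 2 d (0.73) and 5 d (0.53), in EWAT of WT-HFD mice at 2 d (0.78) and in RPWAT of db/db-chow mice at 5 d (0.86). With 0.75 mg/kg it was higher at 2 d in WT-HFD mice (BAT 0.83, EWAT 0.90) and lower at 5 d (BAT -0.53, EWAT -0.82, RPWAT -0.85). As a PEG30-FGF21 Q108 group and its vehicle group differ in the hours since the last dose, the agent and those hours cannot be told apart here.

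The smooth muscle and pericyte markers are set beside the lower Kcna5 values. In WT-HFD mice at 5 d their sums with 2.5 mg/kg, given above beside Kcnh2, were below those with vehicle without overlap in the 3 WAT depots and nearly so in BAT. In WT-chow mice at 2 d they summed to 4666 to 8075 with 2.5 mg/kg in IWAT, against 6679 to 8384 with vehicle, and to 2939 to 3307 and 2985 to 3433 in BAT. In RPWAT they summed to 4990 to 5981 with 2.5 mg/kg and 4151 to 5168 with vehicle, and in EWAT of these mice the sums with 2.5 mg/kg reached above those with vehicle. In WAT the members of this list passed the N-way test in opposite directions, as given beside Kcnh2. The part of these cells in the Kcna5 result was not tested.

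No Kcna5 call in db/db-chow mice was lower. In BAT the response to 2.5 mg/kg in db/db-chow mice minus that in WT-chow mice was 1.23 at 2 d (SE 0.26, adjusted p = 0.0035) and 0.91 at 5 d (adjusted p = 0.014), and in EWAT at 5 d it was 0.93 (adjusted p = 0.019). Between WT-HFD and WT-chow mice the difference in BAT at 2 d was 0.95 (adjusted p = 0.046). The IWAT call in WT-chow mice at 2 d ended when any of 6 of the 10 arrays was left out (adjusted p 0.062 to 0.13). The change stayed at -1.11 or further from 0 in 5 of these cases, and was -0.93 without the 2.5 mg/kg array numbered replicate 1. That array, at 66.2, lay far below the others of its group.

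Kcnc2 and Kcns3 fell in BAT. Kcnc2 encodes a fast-activating channel of neurons, and Kcns3 a silent subunit that acts by joining other Kv subunits. In BAT of db/db-chow mice at 5 d Kcnc2 had 73.0, 61.6, 58.6, 75.3 and 52.3 with PEG30-FGF21 Q108 at 2.5 mg/kg, against 153, 146, 129, 140.2 and 132 with vehicle. The groups were far apart and the log2 change was -1.14 (SE 0.19, adjusted p = 1.0e-06). WT FGF21 gave -1.45 and 0.75 mg/kg -1.15. Kcnc2 was called lower in 9 of 18 BAT comparisons, in every model, and in none of the WAT comparisons. The response to 2.5 mg/kg at 5 d minus that at 2 d in db/db-chow mice was -0.97 (SE 0.27, adjusted p = 0.035), and in WT-chow mice at 5 d the response in BAT minus that in IWAT was -1.07 (adjusted p = 0.024) and minus that in RPWAT -0.94 (adjusted p = 0.022).

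In the same BAT arrays Kcns3 had 38.7, 30.6, 35.0, 36.6 and 35.7 with 2.5 mg/kg and 84.0, 72.5, 59.6, 72.4 and 67.8 with vehicle, a change of -1.01 (SE 0.13, adjusted p = 5.9e-10) without overlap. With 0.75 mg/kg it was -1.22 (adjusted p = 3.3e-13) and with WT FGF21 -0.77. Kcns3 was called lower in 7 BAT comparisons. In RPWAT it was higher, in 4 comparisons. In RPWAT of WT-chow mice at 5 d it had 149, 102, 102, 136 and 118 with 2.5 mg/kg and 86.1, 72.8 and 76.9 in the 3 vehicle arrays, all treated arrays being higher, a change of 0.62 (SE 0.16, adjusted p = 0.011) that did not pass without vehicle replicate 3 (0.56, adjusted p = 0.077) or vehicle replicate 5 (0.60, adjusted p = 0.070). The response to 2.5 mg/kg in BAT minus that in RPWAT was -0.90 at 5 d in WT-chow mice (adjusted p = 0.0011), minus that in EWAT -0.75 (adjusted p = 0.0058), and in BAT the response of db/db-chow mice minus that of WT-chow mice was -0.72 (adjusted p = 0.0043). In these BAT arrays of db/db-chow mice at 5 d the smooth muscle and pericyte markers summed to 4299 to 4541 with 2.5 mg/kg, against 4807 to 5234 with vehicle, and the endothelial markers to 4460 to 4589 and 5010 to 5457. The brown adipocyte markers summed to 23465 to 24312 with 2.5 mg/kg and 20133 to 22393 with vehicle. The sums of these 3 lists thus also moved without overlap. Over all BAT comparisons the endothelial markers did not move as one, as Kdr passed the N-way test as higher and Tie1 and Tek as lower. The part of these cells in the Kcnc2, Kcns3 and Kcnj15 results in BAT was not tested. A second Kcns3 probe set, with a mean log2 intensity of 2.12 in BAT against 5.83 for that used, was called in no BAT comparison and had an N-way difference of -0.03.

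Kcnd3, which encodes a transient outward channel, rose with 2.5 mg/kg in BAT of WT-HFD mice at 5 d (0.58) and db/db-chow mice at 2 d (0.50) and 5 d (0.47). A second Kcnd3 probe set was called in no BAT comparison. Its N-way difference there was 0.09 (unadjusted p = 0.13), which did not pass, against 0.31 for that used. In IWAT of db/db-chow mice at 2 d Kcnd3 was called with 2.5 mg/kg (1.01), but when both outlying arrays of IWAT, 1 of them a vehicle array of this comparison, were left out it was 0.54 (adjusted p = 0.19). Kcna1, a Kv subunit of axons and muscle, fell in BAT of WT-HFD mice at 5 d with WT FGF21 (-0.73) and 2.5 mg/kg (-0.66) and in WT-chow mice with 2.5 mg/kg (-0.60). Its only IWAT call, with WT FGF21 in WT-HFD mice at 5 d, was -0.74. The 11 skeletal muscle markers had a median N-way difference of -0.46 in BAT, where none of them passed. In BAT vehicle arrays of WT-chow mice Myh4 ran from percentile 72.8 to 99.97, and Myl1 only from 98.2 to 99.6. The part of muscle in the Kcna1 values was not tested. Kcnc4 was not called in any comparison.

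Among the inward rectifiers Kcnj15 showed the largest change of any member in BAT. It encodes a weak rectifier best known from kidney and other epithelia. In BAT of db/db-chow mice at 5 d its intensity was 111, 186, 198, 144 and 140.0 with PEG30-FGF21 Q108 at 2.5 mg/kg, against 36.3, 29.1, 45.2, 53.5 and 27.4 with vehicle. The lowest treated array lay far above the highest vehicle array. The log2 change was 2.04 (SE 0.26, adjusted p = 3.8e-10), with 1.71 for WT FGF21 and 1.49 for 0.75 mg/kg. These changes share the same vehicle arrays. In WT-chow mice it rose at 5 d with WT FGF21 and with 2.5 mg/kg (0.75). The 2.5 mg/kg call in WT-chow mice ended when any of 5 of the 10 arrays was left out, with changes of 0.61 to 0.73 (adjusted p 0.065 to 0.14). The response to 2.5 mg/kg in db/db-chow mice was larger at 5 d than at 2 d by 1.47 (SE 0.36, adjusted p = 0.017) and larger than in WT-chow mice at 5 d by 1.29 (adjusted p = 0.013). A second Kcnj15 probe set was called higher in 6 BAT comparisons and 5 in RPWAT, with N-way differences of 0.52 and 0.51.

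In RPWAT of db/db-chow mice at 5 d Kcnj15 had 598, 727, 1030, 796 and 695 with 2.5 mg/kg and 357, 360.4, 420.4, 485 and 492 with vehicle, all treated arrays lying above all vehicle arrays. The change was 0.85 (SE 0.21, adjusted p = 0.0078), with 0.82 for WT FGF21 and 0.83 for 0.75 mg/kg. In these arrays the 6 brown adipocyte markers (Ucp1 and Elovl3 among them) summed to 8160 to 8749 with 2.5 mg/kg, against 1078 to 4231 with vehicle, and their part in the Kcnj15 result was not tested. In RPWAT of WT-HFD mice at 5 d Kcnj15 was 0.83 with 0.75 mg/kg, a call that ended without vehicle replicate 2 (0.44, adjusted p = 0.33). The IWAT call with WT FGF21 in WT-HFD mice at 5 d did not hold without the arrays that stood apart. Kcnj15 had 382, 314, 2984, 361 and 178 with WT FGF21 and 319.5, 64.6, 396, 114 and 94.9 with vehicle, and the array at 2984 differed from the rest of its group over all probe sets by a mean of 0.65 on the log2 scale, where the median IWAT array differed by 0.19. The lowest summed adipocyte markers of the WT FGF21 arrays were 2795, against 27508 to 39858 in the vehicle arrays. Without this array and a db/db-chow vehicle array that differed by 1.01, the change was 0.94 (adjusted p = 0.071), against 1.60 with them. The N-way difference of Kcnj15 was 0.62 (SE 0.10, adjusted p = 1.1e-07) in BAT, 0.48 (SE 0.12, adjusted p = 0.0031) in IWAT, 0.21 (SE 0.05, adjusted p = 0.00092) in EWAT and 0.43 (SE 0.07, adjusted p = 2.8e-06) in RPWAT.

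Kcnj11 and Kcnj8 encode the pores of ATP-sensitive channels. Kcnj11, the pore in pancreatic beta cells and muscle, rose in BAT in 5 comparisons, by 0.68 with WT FGF21 and 0.90 with 0.75 mg/kg in db/db-chow mice at 5 d and by 0.79 with WT FGF21 in WT-chow mice at 5 d. It rose by 0.69 with 2.5 mg/kg in WT-chow mice at 5 d, which did not pass without the 2.5 mg/kg array numbered replicate 1 (adjusted p = 0.093) or the vehicle arrays numbered replicate 2 (adjusted p = 0.078) or 5 (adjusted p = 0.15). Kcnj11 was called in no WAT comparison. Kcnj8, the pore of the vascular form, was called in 13 comparisons. With WT FGF21 it was lower in all 7 of its calls. In IWAT of db/db-chow mice at 5 d it had 114, 104, 88.1, 114 and 97.6 with WT FGF21 and 173, 191, 176, 169 and 154 with vehicle. Every WT FGF21 array was below every vehicle array, a change of -0.74 (SE 0.12, adjusted p = 0.00037). In EWAT of WT-HFD mice at 2 d it had 77.76, 65.84, 97.95, 78.65 and 78.05 with WT FGF21 and 138, 154, 164 and 109.9 with vehicle, again without overlap, a change of -0.82 (SE 0.13, adjusted p = 9.3e-06).

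With PEG30-FGF21 Q108 Kcnj8 was higher in 5 of its 6 calls. In RPWAT of WT-chow mice at 5 d it had 114, 81.0, 91.3, 83.2 and 103 with 2.5 mg/kg and 61.5, 58.3 and 54.6 in the 3 vehicle arrays, a change of 0.69 (SE 0.15, adjusted p = 0.0022) with all treated arrays higher. In RPWAT of WT-HFD mice it was 0.64 with 2.5 mg/kg at 5 d and -0.52 with 0.75 mg/kg at 2 d. The 6 smooth muscle and pericyte markers summed to 7540 to 9065 with WT FGF21 in IWAT of db/db-chow mice at 5 d and to 8016 to 9957 with vehicle, and to 7436 to 9993 with WT FGF21 and 7026 to 8032 with vehicle in EWAT of WT-HFD mice at 2 d. The 6 endothelial markers summed to 9571 to 10214 with WT FGF21 in that IWAT comparison, against 11819 to 13012 with vehicle, and to 9215 to 9734 with WT FGF21 and 9945 to 11551 with vehicle in that EWAT comparison, both without overlap. The part of these cells in the Kcnj8 result was not tested. Kcnj14 fell in EWAT of WT-HFD mice with 2.5 mg/kg at 2 d (-1.04) and 5 d (-1.34), with N-way differences of -0.45 in IWAT and -0.42 in EWAT. Kcnj9, a subunit of G protein-gated channels, was called in no comparison and passed the N-way test in EWAT with 0.23 (SE 0.05, adjusted p = 0.0017). Its other probe set did not pass there (0.04, unadjusted p = 0.34). The mean log2 intensity in EWAT was low for both, at 3.49 for the other probe set and 4.26 for that used.

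Of the tandem-pore channels, Kcnk3 rose in BAT by a small amount. In BAT of WT-HFD mice at 5 d it had 6935, 7260, 7531, 7072 and 7164 with PEG30-FGF21 Q108 at 2.5 mg/kg, against 4875, 6348, 4657, 5662 and 5379 with vehicle. All treated arrays lay above all vehicle arrays, a log2 change of 0.43 (SE 0.08, adjusted p = 1.7e-05). Kcnk3 was called higher in 8 of 18 BAT comparisons, by 0.24 to 0.43, and a second probe set was called higher in 6. The call with 2.5 mg/kg in WT-chow mice at 5 d (0.26) ended without vehicle replicate 1, 2 or 3 (adjusted p 0.051 to 0.068). The N-way difference was 0.22 (SE 0.03, adjusted p = 1.2e-10) in BAT, 0.26 (SE 0.07, adjusted p = 0.0053) in IWAT and 0.24 (SE 0.06, adjusted p = 0.00082) in EWAT. For the second probe set it was 0.39 in BAT, which passed. It was 0.10 (unadjusted p = 0.037) in IWAT and 0.07 (unadjusted p = 0.20) in EWAT, neither of which passed, and -0.13 in RPWAT. In the WT-HFD BAT arrays at 5 d the brown adipocyte markers summed to 43565 to 45381 with 2.5 mg/kg and 35398 to 42109 with vehicle, and their part in the Kcnk3 result was not tested. The single IWAT call, with WT FGF21 in db/db-chow mice at 2 d (0.53), did not pass without the IWAT arrays that stood apart (0.49, adjusted p = 0.31). Kcnk6, a related leak channel, fell in BAT of db/db-chow mice at 5 d with 0.75 mg/kg (-0.43) and 2.5 mg/kg (-0.44) and in IWAT of db/db-chow mice at 2 d it was 0.64 with WT FGF21 and 0.54 with 0.75 mg/kg. With both outlying arrays of IWAT left out these values were 0.16 (adjusted p = 0.85) and 0.05 (adjusted p = 0.98), and neither was called.

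Calcium- and sodium-activated subunits had few calls. Kcnn4, the intermediate-conductance channel of blood and immune cells, rose with WT FGF21 in BAT of db/db-chow mice at 5 d (0.98) and fell with 0.75 mg/kg in the same mice (-0.81). It also fell at 5 d in WT-chow mice with 2.5 mg/kg in BAT (-0.83) and EWAT (-0.85). The 4 macrophage markers measured summed to 2655 to 3782 with WT FGF21 in BAT of db/db-chow mice at 5 d, against 2007 to 2991 with vehicle. At 5 d in WT-chow mice they summed to 233 to 321 with 2.5 mg/kg in BAT and 291 to 583 with vehicle, and to 1794 to 2402 with 2.5 mg/kg and 2224 to 3146 with vehicle in EWAT. The sums lay toward the same side as Kcnn4 in these comparisons, with overlap, and their part in the Kcnn4 values was not tested. Kcnu1, which encodes a channel of sperm, was higher with WT FGF21 at 5 d in WT-chow mice in RPWAT (1.22) and EWAT (0.80). Kcnn1 was lower in BAT of db/db-chow mice at 2 d with WT FGF21 (-0.39).

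Kcnn2 and Kcnk5 are added for the size of their calls in RPWAT of db/db-chow mice at 5 d, and were chosen after their values were seen. Kcnn2, a small-conductance calcium-activated channel, had 13.5, 30.1, 14.1, 81.9 and 24.1 with WT FGF21, against 408, 359.9, 323, 379 and 20.5 with vehicle. The groups overlapped because 1 vehicle array was low, and the log2 change was -3.00 (SE 0.98, adjusted p = 0.044). Kcnk5, a tandem-pore channel, had 16.7, 20.6, 20.2, 33.5 and 24.3 with WT FGF21 and 70.96, 148.3, 107.5, 115.8 and 31.41 with vehicle, again with 1 low vehicle array, a change of -1.90 (SE 0.30, adjusted p = 8.1e-06). With 2.5 mg/kg Kcnk5 was -1.26 and with 0.75 mg/kg -1.04, both called. The kidney and adrenal markers summed to 160.3 to 5004 in these WT FGF21 arrays, against 1375 to 16763 in the vehicle arrays. With their log2 sum as a covariate the WT FGF21 change was -0.33 (adjusted p = 0.71) for Kcnn2, which was not called, and -1.52 (adjusted p = 0.00028) for Kcnk5, which was. The Kcnk5 value with 0.75 mg/kg was -0.80 (adjusted p = 0.11) and not called, and with 2.5 mg/kg -1.07 (adjusted p = 0.018) and called.

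**Figure D4:**
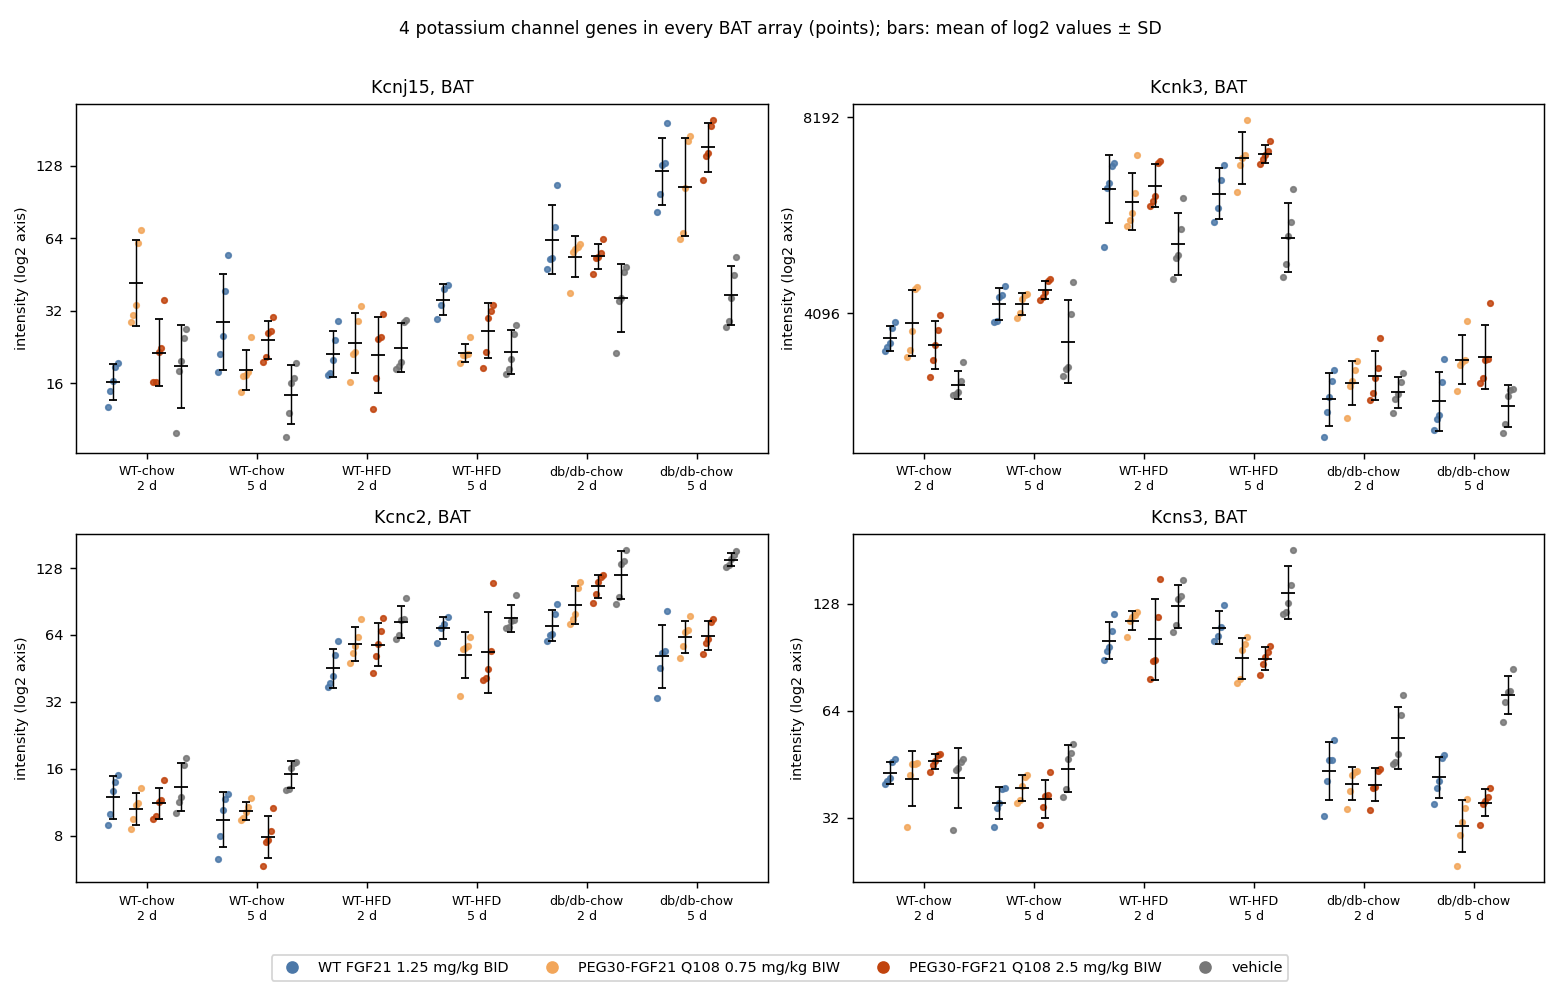
Intensity (log2 axis) of Kcnj15, Kcnk3, Kcnc2 and Kcns3 in each BAT array, by model, day and treatment, with points as arrays and bars as the mean of log2 values ± SD. In db/db-chow mice at 5 d Kcnj15 is higher with each treatment than with vehicle and Kcnc2 and Kcns3 are lower.

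Levels were compared across depots in the vehicle arrays of WT-chow mice as a description with no test. Arrays of 1 depot and model had close medians, which differed between such sets: they ran from 11.2 to 11.8 in BAT of WT-chow mice and from 57.1 to 62.0 in IWAT, so depot and set cannot be told apart. The vehicle arrays were therefore quantile normalized together, and a member was counted when all BAT arrays lay above or below all arrays of a WAT depot by a mean of at least 1 on the log2 scale. Against IWAT 8 members were higher in BAT and 14 lower, where 8.70% and 10.8% of all genes were. Against EWAT the counts were 7 and 14 (7.66% and 9.74% of all genes), and against RPWAT 2 and 15 (5.43% and 9.23%). Higher in BAT than in all 3 WAT depots was Kcng4, and lower were 9 members: Kcnab2, Kcnc2, Kcne1l, Kcne3, Kcnh2, Kcnj14, Kcnj15, Kcnk13 and Kcnn4. The count against all 3 WAT depots was not made over all genes, so whether these members are many or few cannot be told. Among all genes, too, more were lower than higher in BAT against each single WAT depot.

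Kcnk3 lay at percentile 99.2 of BAT arrays, against 90.3 in IWAT, 85.6 in EWAT and 97.5 in RPWAT, and its level in BAT minus that in IWAT was 2.68 on the log2 scale. Kcnj11 stood at 72.2 in BAT, against 44.7 in IWAT, 33.3 in EWAT and the middle of the array in RPWAT, with 2.45 over IWAT. Kcnn1 (1.57) and Kcnc4 (1.48) were also higher in BAT than in IWAT. Kcnab2 and Kcnn4, in contrast, were at 65.4 and 62.4 in BAT and at 90.5 and 87.5 in IWAT, with differences of -3.10 and -2.96. In the same arrays all 4 macrophage markers were higher in IWAT than in BAT without overlap, with median percentiles of 71.2 to 82.9 in BAT and 90.5 to 97.9 in IWAT. The 5 lymphocyte markers had medians of 5.58 to 66.0 in BAT and 56.5 to 98.8 in IWAT, each higher in IWAT and 1 without overlap, and the part of these cells in the Kcnab2 and Kcnn4 levels was not tested. The 11 skeletal muscle markers had medians of 78.7 to 99.7 in BAT and 68.8 to 99.2 in IWAT, all with overlap. Their part in the Kcnj11 levels was not tested. The differences from IWAT were -2.74 for Kcne1l, -2.13 for Kcnk1 and -2.11 for Kcnj14. Kcnk1, a leak channel of kidney and brain, was called lower in RPWAT of WT-chow mice at 5 d with 0.75 mg/kg (-1.77), which was -1.14 and not called with the kidney and adrenal covariate (adjusted p = 0.24), and lay at 85.5 in RPWAT. In the same vehicle arrays the brown adipocyte marker Ucp1 was at or above the 99.9th percentile in every BAT array, with medians of 71.7 in IWAT, 47.3 in EWAT and 99.2 in RPWAT, and the adrenal markers Cyp11a1 and Cyp11b1 were at 97.2 and 96.7 in RPWAT. The part of those cells in the RPWAT levels was not tested.

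**Figure D5:**
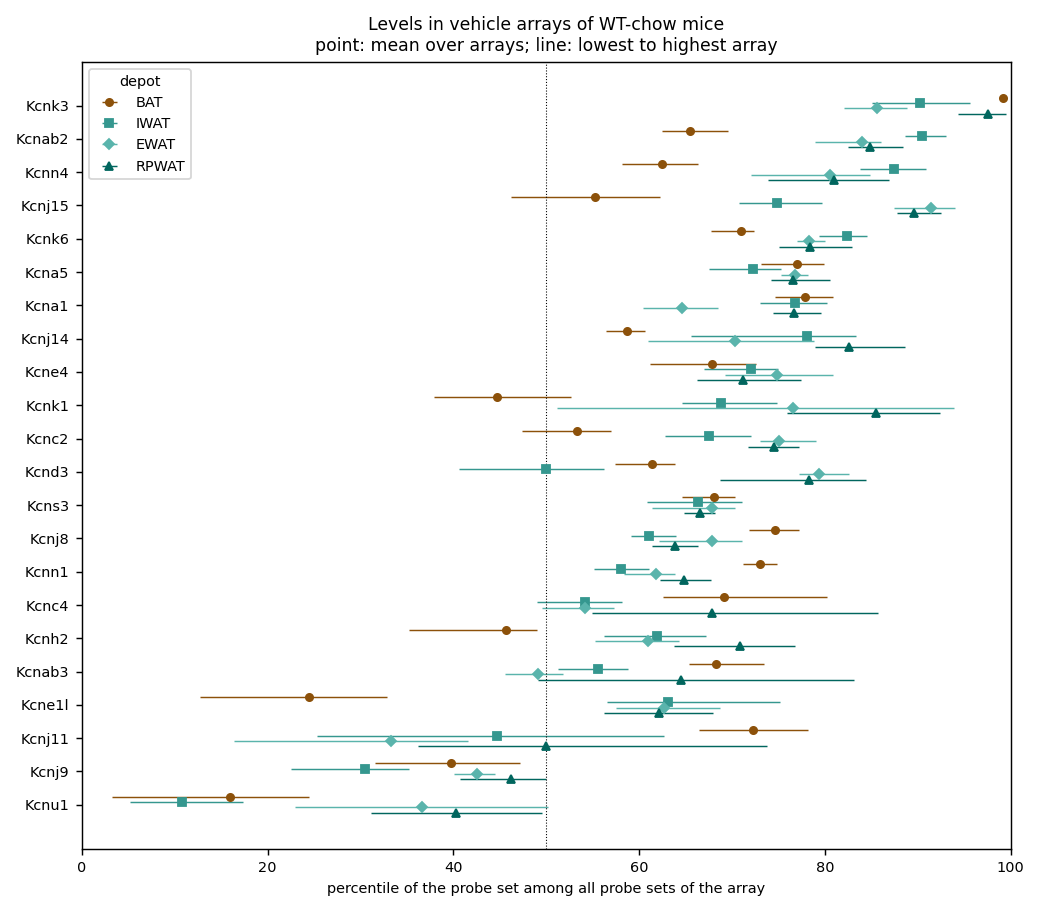
Level of each named member in vehicle arrays of WT-chow mice as a percentile of all probe sets of the array, by depot, with the point at the mean, the line from the lowest to the highest array and a dotted line at 50. Kcnk3 is near the top in BAT and RPWAT, and Kcne1l lies under 50 in BAT and above 50 in the WAT depots.

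Genes that handle potassium without the Kcn prefix were counted in the same way, with 29 of 34 listed genes measured. The list held the sulfonylurea receptors, channel partners such as Amigo1, the sodium pump and its regulators, chloride cotransporters, HCN channels and intracellular channels. BAT had 46 higher and 20 lower calls of 522 (8.81% and 3.83%), against 5.89% and 6.87% of all gene tests. Slc12a2, Hcn2 and Fxyd1 gave most of these higher calls, and Slc12a2 more than any other gene. IWAT had 9 and 4 (1.72% and 0.766%), against 2.84% and 1.08%, and without the outlying arrays 3 and 4 (0.575% and 0.766%), against 1.33% and 1.09%. EWAT had 5 and 4 (0.958% and 0.766%), against 1.65% and 1.10%, and RPWAT 4 and 7 (0.766% and 1.34%), against 1.96% and 1.12%. Slc12a2, the cotransporter that brings sodium, potassium and chloride into cells, passed the N-way test as higher in BAT (0.61) and as lower in EWAT (-0.18). Hcn2, a pacemaker channel, was higher in BAT (0.47). Atp1b2, a beta subunit of the sodium pump, was lower in BAT (-0.38), IWAT (-0.32), EWAT (-0.27) and RPWAT (-0.28). Abcc9, the receptor that pairs with the Kcnj8 pore, was lower in IWAT (-0.19) and EWAT (-0.13) and higher in BAT (0.11). Tmem38b, a channel of the endoplasmic reticulum, was higher in BAT (0.22) and IWAT (0.24), where it was 0.17 and still passed without the outlying arrays.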

How the data were processed

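RNA of 4 adipose depots was measured on custom mouse Affymetrix arrays with 43681 probe sets, 1 sample per array and none pooled. The authors summarized each probe set with the RMA pipeline in Rosetta Resolver. Linear intensities were deposited, 1 per probe set and array. Array medians differ between the sets of a depot and model, so changes were tested only within a depot. The log2 of each intensity was taken with no further scaling and no filter.

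Each treatment was compared with vehicle of the same depot, model and day with limma 3.58.1 in R 4.3.3 (group means over the 24 groups of a depot, eBayes with trend, Benjamini-Hochberg over all probe sets, adjusted p under 0.05). The N-way model of the methods, FGF21 by mouse model by day with interactions, was fitted in limma at an unadjusted p under 0.001, with adjusted p-values printed. Differences between responses to 2.5 mg/kg were limma contrasts, between depots in a fit of the arrays of both. The paper describes the depots as taken from the animals of each treatment group. Arrays of different depots can thus come from the same mice, but this fit took them as independent. The p-values of differences between depots carry this limit. The fits were checked on simulated data.

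Groups came from the labels. The members and lists were chosen with earlier results of these data known. Genes were named if they were Kcne1l, were called in at least 4 of the 18 contrasts of a depot, were among the 5 with the smallest N-way p or the 5 with the highest vehicle level in a depot, or were among the 4 largest differences in level between BAT and IWAT in each direction. Single members outside this rule are named only in counts and lists and where a call of theirs ended or turned under an alternative. Kcnn2 and Kcnk5 are exceptions, chosen after their values were seen.

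Alternatives changed the arrays in the fit, the scaling, a filter at the depot median, the replicate number as a block, the methods' ANOVA, the probe sets of a gene and the arrays left out. A kidney and adrenal covariate and the removal of 1 array, both in RPWAT, and differences between responses and shares of all genes in IWAT without 2 outlying arrays were added after seeing the data. Replicate numbers did not pair the arrays within a depot: the median correlation of deviations of same-numbered arrays ran from -0.06 to 0.02 over depots. The labels do not say whether same-numbered arrays of different depots share a mouse.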

Additional observations from a re-analysis of the deposited data

Results flagged for a closer look

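In 3 of the 93 groups of 4 or more arrays examined for the genes of largest interest, 1 array lay far from the others, where chance alone marks about 1 group in 20. Kcne1l was 24.7 in a vehicle array of RPWAT of WT-HFD mice at 5 d, Kcna5 was 66.2 in a 2.5 mg/kg array of IWAT of WT-chow mice at 2 d, and Kcnh2 was 27.2 in a 2.5 mg/kg array of RPWAT of WT-HFD mice at 5 d.

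The response to PEG30-FGF21 Q108 at 2.5 mg/kg differed between days, models or depots in 24 tests of the named genes (limma, adjusted p under 0.05 over all probe sets, 34 differences tested per member). Between 5 d and 2 d in BAT of db/db-chow mice the difference was -0.97 for Kcnc2 and 1.47 for Kcnj15 on the log2 scale. In BAT, db/db-chow minus WT-chow responses were 1.23 at 2 d and 0.91 at 5 d for Kcna5, and at 5 d 0.71 for Kcnab3, 1.29 for Kcnj15 and -0.72 for Kcns3. The WT-HFD minus WT-chow response of Kcna5 in BAT at 2 d was 0.95. In WAT the db/db-chow minus WT-chow response was 1.74 for Kcne1l and 1.24 for Kcna1 in IWAT at 2 d and 0.93 for Kcna5 in EWAT at 5 d. With 2 outlying arrays of IWAT left out the IWAT differences were 1.57 (adjusted p = 0.14) for Kcne1l and 0.99 (adjusted p = 0.13) for Kcna1, and neither passed.

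Between depots in WT-chow mice, Kcne1l responses in BAT minus those in IWAT were 1.56 at 2 d and 1.74 at 5 d, minus those in EWAT 1.30 and 1.71, and minus those in RPWAT 1.57 at 5 d. At 5 d the response in BAT minus that in IWAT was -0.91 for Kcnab3 and -1.07 for Kcnc2, and minus that in EWAT it was 0.76 for Kcnd3 and -0.75 for Kcns3. Minus that in RPWAT it was -0.94 for Kcnc2, 1.28 for Kcnh2, -0.53 for Kcnj8 and -0.90 for Kcns3. These fits took the arrays of different depots as independent, although they can come from the same mice.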

How the results depend on the processing

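Of the 216 called changes against vehicle, 1 turned its direction under an alternative: Kcne2 in IWAT of WT-HFD mice at 5 d with WT FGF21 was 1.63, and -0.02 (adjusted p = 0.98) without the IWAT arrays that stood apart. None of the 27 N-way differences of named genes that passed turned under those run. The number of called changes no longer called was 166 with the methods' ANOVA adjusted by Benjamini-Hochberg, 28 with it unadjusted and a 1.2-fold minimum, 20 with the replicate block, 71 with the fit of 1 model, 99 with only the groups compared, 21 with quantile normalization, 23 with the mean of all probe sets, 12 of 46 with the kidney and adrenal covariate, 1 of 46 without the RPWAT array, 18 of 38 without the IWAT arrays that stood apart, 355 of 1080 without 1 replicate number and 32 of 248 when single arrays were left out.

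The count of members called, given for WT FGF21, 0.75 mg/kg and 2.5 mg/kg, depended on the test. The methods' ANOVA at an unadjusted p under 0.05 with a 1.2-fold minimum gave 56, 62 and 67 for BAT, 39, 39 and 53 for IWAT, 45, 46 and 49 for EWAT, then 52, 44 and 48 for RPWAT. After Benjamini-Hochberg adjustment it gave 8, 15 and 21 for BAT, 2, 0 and 2 for IWAT, 5, 0 and 3 for EWAT, then 6, 1 and 3 for RPWAT. With only the groups compared in the limma fit IWAT had 5, 0 and 9, while 0.75 mg/kg had 4 calls in EWAT and 5 in RPWAT. The fit of 1 model gave 9 and 3 in IWAT for WT FGF21 and 0.75 mg/kg. These fits have fewer arrays behind each spread. Quantile normalization gave 14 in EWAT and the mean of probe sets 5 in IWAT, both for 0.75 mg/kg, and the cause was not tested. At an adjusted p under 0.05 the N-way test passed 21 members in BAT and 11 in RPWAT, and with the filter at the depot median 17 and 11. On the deposited log2 scale 80, 37 and 48 members were counted as different in BAT from IWAT, EWAT and RPWAT, where the sets of arrays differ in their medians.

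Within a depot, same-numbered arrays share only a number. With the replicate block BAT had 29, 29 and 38 calls, IWAT 14, 5 and 13, EWAT 13, 10 and 13, RPWAT 14, 10 and 15, and the N-way counts 11, 5, 9 and 5 in BAT, IWAT, EWAT and RPWAT.

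Leaving out 1 replicate number of every group gave BAT 17 to 31 calls with WT FGF21, 18 to 27 at 0.75 mg/kg and 21 to 30 at 2.5 mg/kg. IWAT had 14 to 21, 2 to 9 and 10 to 22 calls, EWAT 9 to 13, 4 to 9 and 10 to 14 calls, RPWAT 8 to 21, 6 to 13 and 10 to 19 calls. Without the single RPWAT vehicle array, RPWAT had 19, 16 and 20 calls. The N-way counts were 7 to 10 in BAT, 3 to 6 in IWAT, 5 to 10 in EWAT and 4 to 7 in RPWAT, and the levels counted 22 to 23 against IWAT, 21 to 24 against EWAT and 17 to 19 against RPWAT. Members near the low end of an array, such as Kcne1l in BAT, carry little signal, and a missing call there shows no more than that the change did not pass at 3 to 5 arrays a group.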
